A study of Mus musculus with 4 samples.

Results

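In forebrain chromatin of mouse embryos that lacked H2A.z1, 855 gene names carried at least 5 peaks of trimethylated lysine 36 on histone H3 (H3K36me3), while the same names carried 0 peaks in wild type. The names are those that the authors' annotation gives to each peak. Peaks of the intergenic class and of chromosomes outside 1 to 19 were left out of the count. The 855 names held 6880 cKO peaks, which is 7.50% of the 91762 genic peaks on these chromosomes and part of the 95750 cKO peaks in all. They made up 6.97% of the 12267 names with a peak in either list. The reverse pattern, at least 5 wild-type peaks and 0 cKO peaks, was met by 3 names (0.0245%).

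Wild-type (WT) embryos were compared with embryos whose H2A.z1 had been deleted in the brain only (H2A.z1cKO, here cKO), both on a C57BL/6 background and at embryonic day 13. The labels call the material forebrain neural progenitor cells and do not name the Cre driver, the number of embryos or the extent of the deletion. Each genotype had 1 ChIP library, made with an Active Motif antibody to H3K36me3, and 1 input library without antibody. The names were selected on the peak counts of these same libraries, so all values below describe 2 libraries, and no test between genotypes was made. Shares are given with 95% Clopper-Pearson limits, which cover counting error only. For shares of peaks the limits treat each peak as independent. Peaks of 1 gene share a source, so these limits may be too narrow.

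H3K36me3 is written by SETD2, an enzyme that travels with elongating RNA polymerase II. The mark therefore lies over the bodies of transcribed genes, with little at the start site and more toward the end. H2A.z1 is a variant of histone H2A that sits mainly in nucleosomes beside promoters and enhancers.

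Tag depth was 31984670 in the WT ChIP and 32927164 in the cKO ChIP, yet the WT list had 36820 peaks and the cKO list 95750. When the cKO list was reduced to its 36820 strongest peaks, with a -log10 q of 12.3 or more, 42 of the 855 names still met the rule. The name of the deleted gene, H2afz, had 1 peak in each genotype, and that of its paralogue H2afv had 6 in WT and 7 in cKO. These counts do not check the genotype. The labels name neural progenitor cells, for which a list of 12 radial glia genes was used. Of these 12 genes 9 held a WT peak and 11 a cKO peak, with Fabp7 unmarked in cKO. Of 10 neuronal genes 3 and 5 were marked. Genes of microglia (0 and 2 of 10), endothelium (0 and 0 of 10), the erythroid lineage (0 and 2 of 8) and mesenchyme (0 and 1 of 10) were nearly all without a peak in either list. None of these other lists held a gene with 5 or more cKO peaks and 0 WT peaks in its body. By name, Alas2 of the erythroid list, on the X chromosome, had 6 cKO peaks and 0 WT peaks.

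Few start regions carried a peak, in these genes as in all. Of 327 genes described below with a window in the RefSeq promoter table (assembly GRCm38.p6), 2 had a cKO peak within the 250 bases before a start. Counted by window this was 0.469%, beside 1.23% of all windows and 1.08% of those of genes with at least 5 cKO peaks and a WT peak in the body. The windows shown belong to the 4 genes with the most peaks whose window lies outside every RefSeq gene, and to Gdpd3. Gdpd3, a glycerophosphodiester phosphodiesterase gene, is 1 of the 2 genes with such a peak, and the other is not shown. They are Capn2 at chr1:182517611-182517860 (minus strand), Aco1 at chr4:40143015-40143264 (plus), Actr2 at chr11:20112952-20113201 (minus), Lpin2 at chr17:71183282-71183531 (plus) and Gdpd3 at chr7:126766164-126766413 (plus). Each runs from 5′ to 3′ on the strand of the gene. Capitals mark 4 motifs on either strand. The GC box is GGGCGG. The CCAAT box has the letters of its name. The TATA box was searched as TATAAA. The ETS motif was searched as CCGGAAG.
Capn2: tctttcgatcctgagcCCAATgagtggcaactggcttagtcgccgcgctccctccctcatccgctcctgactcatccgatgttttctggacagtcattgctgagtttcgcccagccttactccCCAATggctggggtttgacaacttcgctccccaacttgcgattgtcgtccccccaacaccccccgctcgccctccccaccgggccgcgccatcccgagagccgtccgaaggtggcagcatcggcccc
Aco1: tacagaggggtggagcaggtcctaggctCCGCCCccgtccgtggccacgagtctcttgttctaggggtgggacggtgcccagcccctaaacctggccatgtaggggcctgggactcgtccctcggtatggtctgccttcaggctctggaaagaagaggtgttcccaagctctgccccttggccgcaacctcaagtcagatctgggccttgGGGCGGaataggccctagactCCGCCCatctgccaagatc
Actr2: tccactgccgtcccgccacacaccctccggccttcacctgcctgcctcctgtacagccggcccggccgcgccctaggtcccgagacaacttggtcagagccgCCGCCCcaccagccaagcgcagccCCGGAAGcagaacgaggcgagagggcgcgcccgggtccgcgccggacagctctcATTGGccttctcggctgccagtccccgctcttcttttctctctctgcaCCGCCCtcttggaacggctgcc
Lpin2: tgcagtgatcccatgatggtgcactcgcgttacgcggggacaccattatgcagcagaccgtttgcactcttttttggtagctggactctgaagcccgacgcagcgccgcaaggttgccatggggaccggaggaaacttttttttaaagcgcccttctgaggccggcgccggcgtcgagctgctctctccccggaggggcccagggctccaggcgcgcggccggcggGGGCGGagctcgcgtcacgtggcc
Gdpd3: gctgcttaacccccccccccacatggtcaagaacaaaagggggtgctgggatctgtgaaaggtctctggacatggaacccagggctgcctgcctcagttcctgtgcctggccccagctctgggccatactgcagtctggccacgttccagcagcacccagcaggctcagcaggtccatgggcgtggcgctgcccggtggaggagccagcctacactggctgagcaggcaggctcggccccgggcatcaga

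The Capn2 window held 2 CCAAT boxes and no GC box, and the nearest cKO peak in the gene began 5379 bp after the start. The Aco1 window held 3 GC boxes and the nearest peak lay 21715 bp away. In Actr2, with 2 GC boxes, 1 CCAAT and 1 ETS motif, the distance was 12471 bp, and in Lpin2, with 1 GC box, it was 36965 bp. The Gdpd3 window held none of these motifs. A cKO peak of 1243 bp (chromosome 7, 126766295 to 126767537, fold enrichment 7.52) crossed it and ran into the gene. Over all 426 windows of the 327 genes, 60.8% held a GC box, 34.3% a CCAAT box, 4.69% a TATA box and 15.0% an ETS motif. Over all 31396 windows of chromosomes 1 to 17 and 19 the shares were 33.0, 33.7, 12.4 and 7.01%. In the 4924 windows of the 3796 genes with at least 5 cKO peaks and a WT peak in the body they were 61.3, 35.6, 5.48 and 16.3%, each within 2 percentage points of the genes with cKO peaks alone. The palindromic NRF1 motif, also searched, was in 1.64% of the windows of the 327 genes, 0.774% of all and 2.03% of the genes with WT peaks. The median GC content was in the same order 61.0, 52.4 and 61.6%. A match to such letters is a description of the window, not a site of binding.

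The annotation assigns each peak 1 transcript and the name of its gene, and that gene was not always the one whose body holds the peak. Of the 855 names, 390 (45.6%) matched a RefSeq protein-coding gene whose own body held at least 5 of the peaks and 0 WT peaks of any name. In these 390 genes, with 3378 member peaks, the named gene itself held several cKO peaks of its own name and 0 WT peaks. They are called whole genes here. Other genes with several cKO peaks and 0 WT peaks are counted by gene body below. Another 134 names had at least 5 peaks in their own body, but that body also held a WT peak, which carried another name or was of the intergenic class. For 63 names 1 to 4 peaks lay in the named gene, for 80 none did, and 188 names had no protein-coding gene of that name. Counted by peak, 4468 (64.9%) lay in the body of the named gene, 2242 (32.6%) in the body of another coding gene and 170 (2.47%) in no coding gene.

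**Figure D1:**
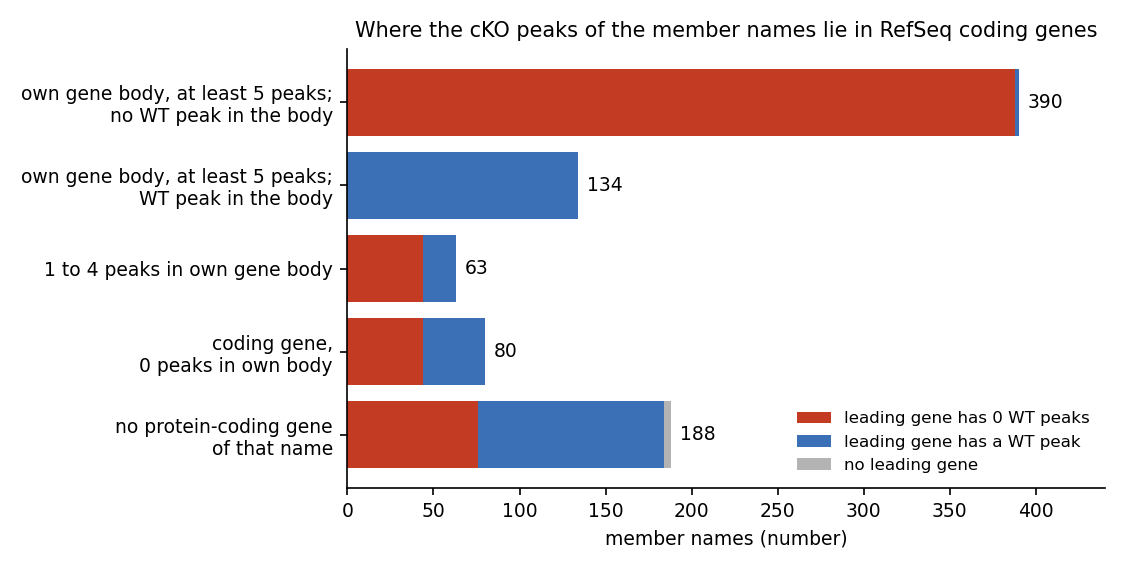
Number of the 855 member names by where their cKO peaks lie. Colours show whether the leading gene, the coding gene that holds most peaks of the name, has 0 WT peaks (red), a WT peak (blue) or is absent (grey). The 390 names at the top are nearly all red, while 108 of the 188 names without a coding gene have a leading gene with a WT peak.

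By gene body instead of by name, 708 of 20661 RefSeq protein-coding genes on chromosomes 1 to 19 had at least 5 cKO peaks and 0 WT peaks. This is 3.43% of all bodies and 13.2% of the 5379 bodies with at least 5 cKO peaks. Of the 708 genes, 390 are those above, and 497 in all are the gene that holds most peaks of a member name, here called its leading gene. At the level of the leading gene, 552 names lay in a gene with 0 WT peaks and 299 in a gene with a WT peak, and 4 names had no leading gene. There were 817 different leading genes, of which 34 led 2 names each. Trip13, the AAA ATPase that disassembles the mitotic checkpoint complex, was such a gene: 5 of its 19 peaks carried its own name and 14 the name Gm25197.

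The names that borrow the peaks of a neighbour included several with high counts. Gm14003 had 29 peaks (chromosome 2, 125302540 to 125389289), and all 29 lay in Fbn1, the gene of fibrillin in the extracellular matrix, whose body held 33 cKO peaks and 0 WT peaks. The name mmu-mir-7018 had 24 peaks, all in Hspg2, the gene of the basement membrane proteoglycan perlecan, with 28 cKO and 0 WT peaks. Gm26789 had 22 peaks in Herc4, a ubiquitin ligase gene with 30 cKO and 0 WT peaks. All 23 peaks of Gm26646 lay in Ap3s2, a subunit gene of an adaptor complex, but there the body had 26 cKO and 2 WT peaks. Fbn1, Hspg2 and Herc4 thus went from 0 to many peaks under a foreign name, and Ap3s2 did not.

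Among coding names without a peak of their own, Dis3, the exosome ribonuclease, stood for 19 peaks in Pibf1 (22 cKO and 0 WT peaks). Dis3 itself held 14 cKO and 6 WT peaks under other names. Rassf10 stood for 18 peaks in Tead1, a transcription factor of the Hippo pathway (19 and 0), and Rps13 for 17 peaks in Pik3c2a, a lipid kinase gene (19 and 0). The proneural transcription factor Neurog2 entered with 14 peaks that all lay in Zgrf1, whose body had 36 cKO and 5 WT peaks, while Neurog2 itself had 0 peaks in either genotype. Ghsr, the ghrelin receptor, likewise had no peak of its own and stood for 12 peaks in Fndc3b (17 and 1). Reading these names as genes would therefore name a neurogenic factor and a hormone receptor that carried no mark.

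In Prom1, which encodes the progenitor membrane protein CD133, the names divided a single gene. The 18 cKO peaks from 7.44 to 57.8 kb after the start were named Prom1 and had no WT peak beside them. The 31 peaks from 64.5 to 103 kb were named Fgfbp1, as were the 6 WT peaks, which lay between 78.3 and 101 kb. Prom1 was therefore a gene with fewer and later WT peaks rather than with none.

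**Figure D2:**
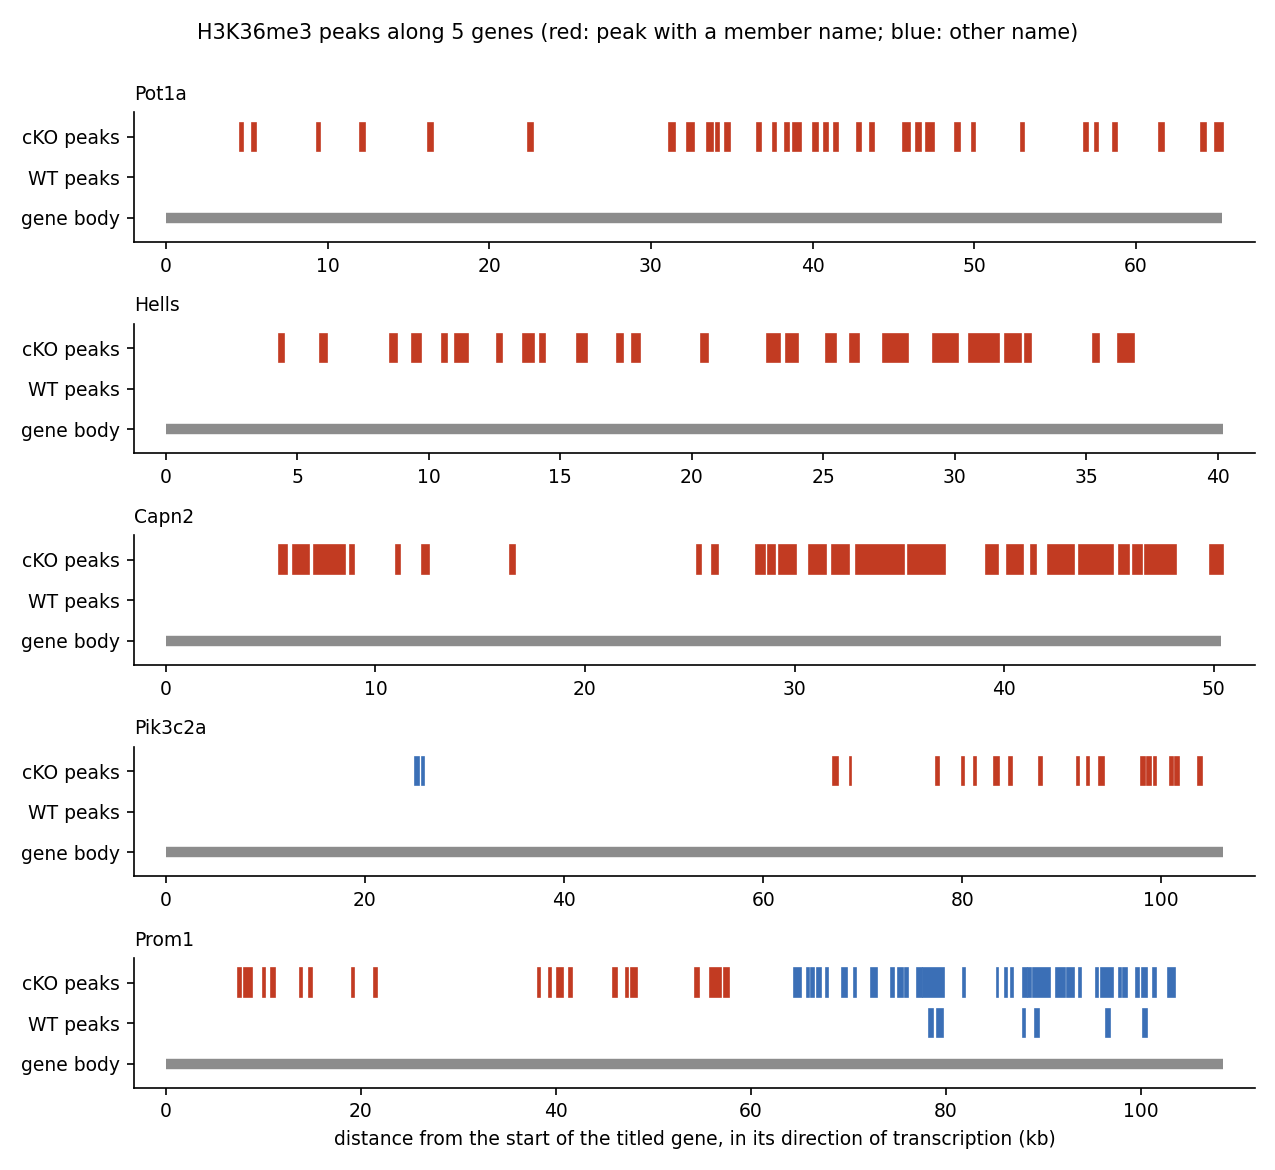
Peaks of the WT and cKO lists along 5 genes, by distance in kb from the start of the titled gene in its direction of transcription. Red peaks carry a member name and blue peaks another name. Pot1a, Hells and Capn2 have 32, 24 and 25 cKO peaks in the body and 0 WT peaks while the peaks of Pik3c2a and Prom1 are each divided between 2 names.

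Among the 855 names 18 were microRNA genes. Of the names with a peak that begin with Mir, 9 of 193 were members (4.66%), beside 6.97% of all names. Names written mmu-mir are outside this share. Of the 18 microRNA names, 14 were found in the RefSeq miRNA table. Their peaks mostly followed the gene around the hairpin. The mature sequences shown are those of the miRNA names discussed here and of the miRNA under a peak named 4930546H06Rik, with the seed (bases 2 to 8) in capitals.
miR-7018-5p: gUGAGCAGacagggaguggugggg
miR-7018-3p: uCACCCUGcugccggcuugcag
miR-719: aUCUCGGCuacagaaaaauguu
miR-101b-3p: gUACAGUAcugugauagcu
miR-125a-5p: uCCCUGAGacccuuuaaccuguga
miR-125a-3p: aCAGGUGAgguucuugggagcc

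These 6 sequences have 6 different seeds. The Mir7018 hairpin (chromosome 4, 137538286 to 137538370) lies inside Hspg2, and 1 of the 24 peaks overlapped it. Mir719 lies inside Nupl1, a nucleoporin gene with 15 cKO and 0 WT peaks, and 1 of its 9 peaks covered the hairpin. Mir101b lies inside Rcl1, a ribosome biogenesis gene with 11 cKO and 0 WT peaks, and none of its 11 peaks covered the hairpin. In all, 8 of 919 hairpins of the table on these chromosomes lay under a member peak. The number under any cKO peak was not counted, so this count has no share to be set beside. The hairpin of Mir125a (chromosome 17, 17830812 to 17830879) was under a peak of 1932 bp (17830802 to 17832733, fold 6.30) at the name 4930546H06Rik, which is the sperm protein gene Spaca6 in RefSeq. That body held 5 cKO peaks over 30.4% of its length and 0 WT peaks.

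The genes with the most peaks of their own had a wide range of functions. Pot1a, which encodes a telomere-binding shelterin protein (chromosome 6, 25743940 to 25809277), had 0 WT peaks and 32 cKO peaks, of which 24 were intronic. They were narrow, with a median of 258 bp, and covered 13.96% of the body. Hells, a chromatin remodeller of the SNF2 family needed for DNA methylation at repeats (chromosome 19, 38930262 to 38970470), had 0 WT peaks and 27 cKO peaks, 24 of them in the body, over 25.02% of it. Ulk2, a kinase that starts autophagy, had 0 and 27 peaks under its name and 32 in its body (14.9% covered). Nfkb1, which encodes an NF-κB subunit and its precursor, had 0 and 26 (9.04%). Prex1, an exchange factor for Rac, had 0 and 25 peaks that covered only 6.52% of a body of 147488 bp. In each of these genes the WT list had no peak at all.

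Capn2, the catalytic subunit of a calcium-dependent protease (chromosome 1, 182467253 to 182517610), had the highest coverage among the genes with at least 20 peaks. Its 25 cKO peaks covered 37.0% of the body and the WT peaks 0%. The peaks had a median width of 576 bp and a median fold enrichment of 5.64, both above the medians of all member peaks. The widest, 2277 bp, lay in an intron (182482379 to 182484655), and the strongest (182486117 to 182486900) had a fold of 8.46 and a -log10 q of 21.5. The nearest WT peak to any of them was 8083 bp away, beyond the gene. In the list reduced to the WT number, Capn2 kept 12 of its peaks, the most of any member, while Pot1a kept 7. Ulk2 and Nfkb1 kept 5 each, and Hells and Prex1 no longer met the rule.

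Genes of metabolism and transport followed. Aco1, the cytosolic aconitase that doubles as an iron-regulatory protein, had 0 WT and 22 cKO peaks over 26.9% of its body. Mccc1, a subunit of the carboxylase of leucine breakdown, had 0 and 22 over 20.1%, and Me2, mitochondrial malic enzyme, 0 and 19 under its name and 29 in its body (24.1%). Abcc1, a drug exporter, had 0 and 21 over 6.90%, and Lpin2, a phosphatidate phosphatase, 0 and 20 over 17.3%. Genes of the cytoskeleton and centrosome reached similar counts. Actr2, a subunit of the complex that nucleates branched actin, and Kif18a, a mitotic kinesin, each had 0 WT and 21 cKO peaks. Cep164, which builds the appendages that anchor a cilium, and Cep63, a centriole duplication protein, each had 0 and 19.

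Ranked by coverage, shorter genes stood first. Nup43, a nucleoporin gene of 11383 bp, had 0 WT peaks and 7 cKO peaks over 47.1% of its body. Pomt1, a transferase that starts O-mannose glycans, also reached 47.1% with 10 peaks, and Chtf18, part of a replication clamp loader, 46.2% with 5. Mphosph6, a cofactor of the RNA exosome, had 44.8%, and Trip13 41.0%. Ufm1, a ubiquitin-like modifier, had 39.96%, Mtrf1l, a mitochondrial release factor, 39.9%, Pcgf6, a Polycomb RING finger protein, 39.4%, Stk11ip 38.6%, and Rcn1, a calcium-binding protein of the endoplasmic reticulum, 37.0%. At the low end, Cdkal1, a tRNA-modifying enzyme gene of 663938 bp, had 9 peaks over 0.402% of its body, and Dlc1, a GTPase-activating protein, 5 peaks over 0.557%. A count of 5 peaks thus stood for a heavily covered short gene in some cases and for scattered peaks in a very long gene in others.

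**Figure D3:**
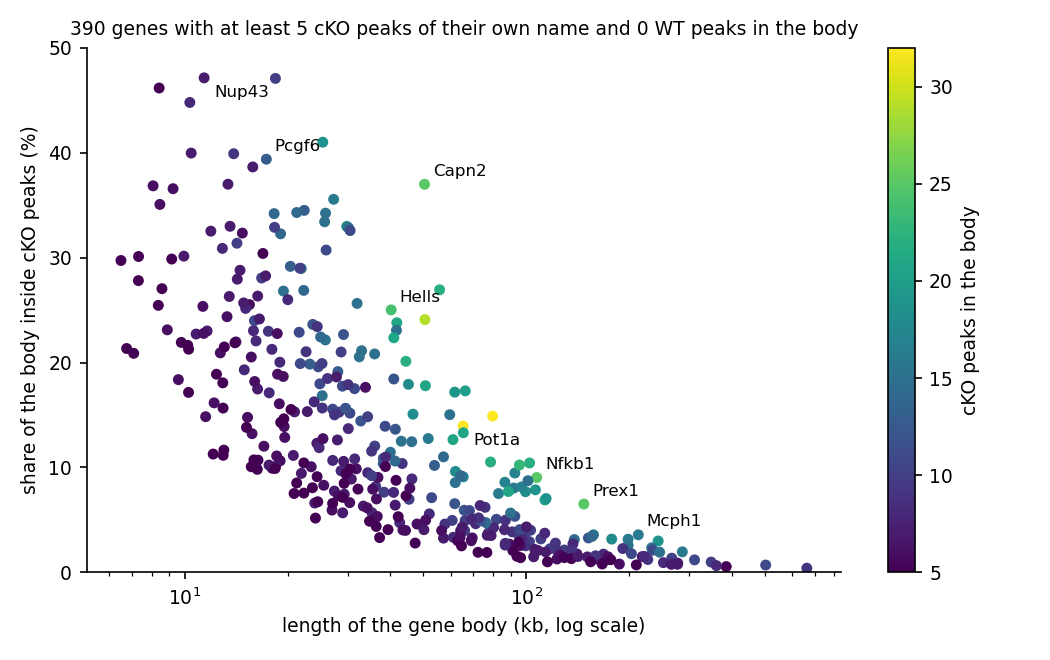
Each point is 1 of the 390 genes with at least 5 cKO peaks of their own name and 0 WT peaks in the body, by body length (kb, log scale) and the share of the body inside cKO peaks (%), with colour for the number of cKO peaks. Coverage runs from 0.402 to 47.1% and falls as genes grow longer, and Capn2 stands above the other genes of its length.

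Across the 390 genes the median coverage in cKO was 10.1% (quartiles 4.07 and 19.9%), against 0% in WT by the way they were chosen. Their cKO coverage was lower than that of the 4671 genes with at least 5 cKO peaks and a WT peak in the body. Those genes had a median of 29.9% (14.8 and 48.3%), and the split by WT peaks may itself favour this order. The body length was alike, 35.97 kb against 35.3 kb, while the density was 2.51 peaks per 10 kb against 4.09. Among genes with 5 to 9 cKO peaks the medians of coverage were 9.13% and 34.4%, but the bodies then differed, 29.0 kb against 18.3 kb. Of the 390 genes, 196 had a coverage at least 10 points higher in cKO. With 0% in WT, this only means a cKO coverage of at least 10%. The same rule was met by 3902 of the 4669 genes of at least 5 kb with at least 5 cKO peaks and a WT peak. Over all coding genes of at least 5 kb on these chromosomes it was 5425 of 16092 (33.7%), and these include genes without any peak.

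Single member peaks were narrower and weaker than the other cKO peaks of well-marked genes. All these values come from the cKO list alone. The median width was 333 bp (quartiles 241 and 508 bp), against 455 bp (283 and 828 bp) for the 72188 cKO peaks of the 5140 names with at least 5 cKO peaks and a WT peak. The smallest possible width in this list is the modelled fragment length of 185 bp. Peaks over 2 kb made up 0.509% of the member peaks (35 peaks) and 5.86% of the others. The median fold enrichment over local background was 4.70 against 5.40, and the median -log10 q was 8.23 against 10.6. At the summit the median pileup was 22 extended tags against 25. The local background, recovered from pileup and fold, was 3.26 and 3.30 tags at the median, beside a genome level of 3.26 tags. In both sets the lowest background and its lower quartile equalled this genome level, so the medians sat at or near a floor. Their likeness therefore says little. The upper quartiles were 4.52 tags for member peaks and 4.70 for the others. The lower fold of member peaks went with fewer ChIP tags at the summit.

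**Figure D4:**
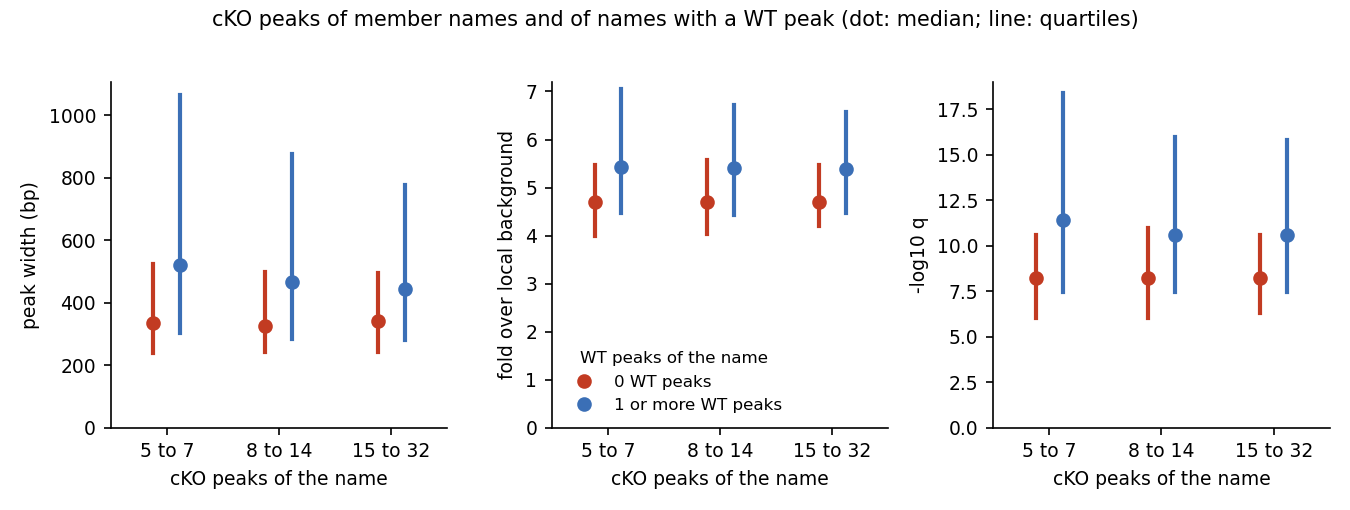
Width (bp), fold enrichment and -log10 q of cKO peaks, for member names (red) and names with at least 1 WT peak (blue), by the number of cKO peaks of the name. Dots are medians and lines span the quartiles. The member medians of width lie between 327 and 342 bp in the 3 classes, below the 445 to 520 bp of the names with WT peaks.

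This difference, which the split by WT peaks may favour, was present at each number of peaks per name. For names with 5 to 7 peaks the median widths were 335 and 520 bp, for 8 to 14 peaks 327 and 465 bp, and for 15 to 32 peaks 342 and 445 bp. The median fold of member peaks was 4.70 in all 3 classes, and that of the names with WT peaks 5.44, 5.40 and 5.39. Names with 1 to 4 cKO peaks and 0 WT peaks, which miss the rule, had a median width of 328 bp and a fold of 4.62, close to the members. Member peaks inside the named gene and member peaks inside another coding gene had the same median width of 333 bp and the same median fold of 4.70.

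The strongest member peak carried the name Gm16206 and lay in an intron of Nhlrc3 (chromosome 3, 53455890 to 53457656), with a fold of 14.1 and a -log10 q of 52.7. Next came a TTS-class peak in the zinc finger gene Zfp94 (-log10 q 33.2) and an intron peak of 1832 bp in Dcaf10, a substrate receptor of a ubiquitin ligase (32.4). An exon peak at 4930546H06Rik (31.8) and a peak named Gm13536 in Zbtb43 (31.4) completed the 5 strongest. The widest member peak, 3550 bp, ended Mettl2, a tRNA methyltransferase gene (chromosome 11, 105134754 to 105138303). Peaks of 3230 bp in P4ha1 (name Gm10273), 3000 bp in Trip10, 2945 bp in Rcc1, the Ran exchange factor, and 2857 bp in Nckap5l (name 4921518J05Rik) followed. Of these 10 peaks the one named Gm13536 alone overlapped a WT peak, but the nearest WT peak to the one in Mettl2 was 1212 bp away.

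By class, 65.1% of member peaks were intronic (64.0 to 66.2%), 16.3% exonic (15.4 to 17.2%), 13.9% at termination sites (13.1 to 14.7%) and 4.71% at promoters (4.22 to 5.24%). The names with at least 5 cKO peaks and a WT peak had 67.9, 14.7, 12.1 and 5.21%. For names of 5 to 7 peaks the intron share was 59.7% for members and 54.5% for names with WT peaks. It was 69.6 and 65.5% for 8 to 14 peaks, and 66.8 and 70.5% for 15 to 32. Members thus had the lower intron share only in the class with the most peaks. Promoter-class peaks rarely overlapped a short window around a RefSeq start. The window behind the authors' promoter class is not given and may be wider. Of 320 promoter-class member peaks on chromosomes 1 to 17 and 19, 2 (0.625%) overlapped a window from 250 bases before to 50 after a RefSeq start. For the names with WT peaks it was 61 of 3690 (1.65%).

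Within the gene body the peaks thickened toward the end, as in other marked genes. Position was measured in the 327 genes whose strand is given in the promoter table. The first 10% of the body held 2.15% of their cKO peaks and the last 10% held 18.3%. In 3796 genes with at least 5 cKO peaks and a WT peak the values were 2.4997% and 16.4%. The median gene began its peaks at 30.5% of the body, against 20.9% in the genes with WT peaks, and ended them at 95.5% against 97.4%. With 5 to 9 peaks in the body the peaks began at 36.4% and 28.5%. In these sparser genes the first 10% held 3.57% of the peaks, above the 1.48% of genes with WT peaks. The median gap between neighbouring peaks was 976 bp against 504 bp, and 77.0% of gaps against 89.7% were under 3 kb.

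**Figure D5:**
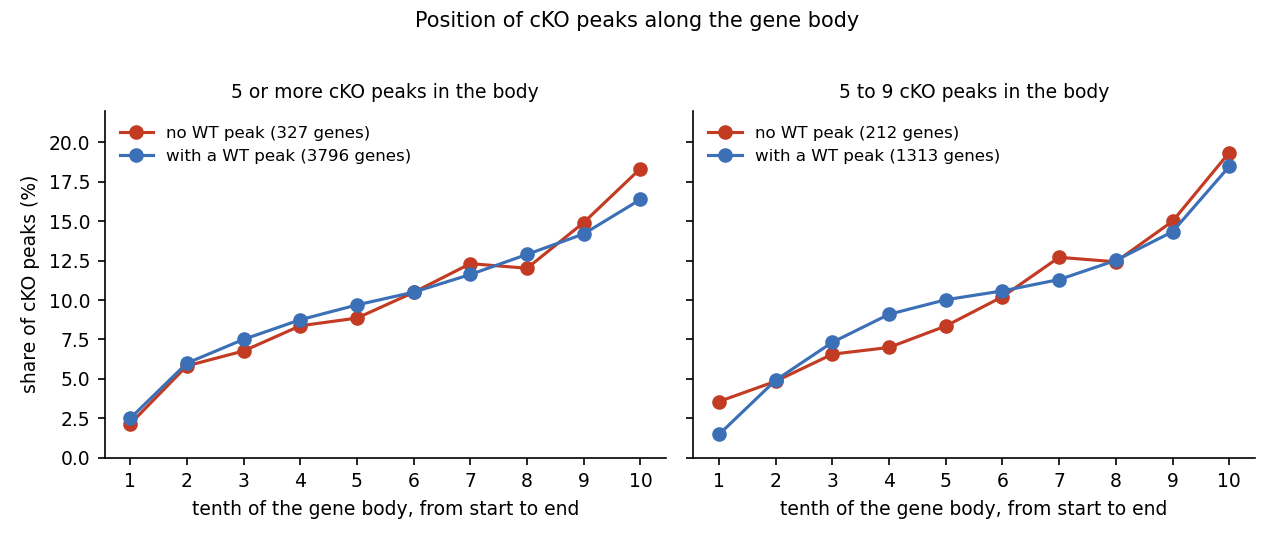
Share of cKO peaks (%) in each of 10 equal parts of the gene body from start to end, for the genes with 0 WT peaks (red) and the genes with a WT peak (blue). Left, genes with at least 5 cKO peaks in the body; right, genes with 5 to 9. Both curves rise from under 4% in the first of the 10 parts to over 16% in the last.

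Most member peaks were far from any WT peak, as the rule favours. The median distance to the nearest WT peak of any name was 38.7 kb (quartiles 16.2 and 112 kb), and 14.9% of member peaks had a WT peak within 10 kb. For the other genic cKO peaks the median was 1.24 kb and the share 85.9%. Only 10 member peaks (0.145%, 0.0697 to 0.267%) overlapped a WT peak, which then carried another name, against 27.9% of the other genic peaks. A WT peak of another name lay between the outermost peaks of 18 names (2.11%, 1.25 to 3.31%), among them Xpnpep1, an aminopeptidase gene with 17 cKO peaks, and Oxct1, a ketone body enzyme gene with 15. With the span widened by 10 kb on each side the share was 29.7%. WT peaks of the intergenic class, which the rule does not count, carried 15 of the member names.

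The rule has 2 thresholds. Just inside, 234 names had exactly 5 cKO peaks, and the median was 7 (quartiles 5 and 9), with 197 names at 10 or more and 17 at 20 or more. Just outside, 336 names had 4 cKO and 0 WT peaks. Another 909 names had at least 5 cKO peaks and exactly 1 WT peak. The highest of these were Tbcd, a tubulin-folding cofactor, with 45 cKO peaks and 1 WT peak, Mtr, methionine synthase, with 40 and 1, and Madd, a Rab exchange factor, with 32 and 1. Mpdz, a scaffold of cell polarity, had 30 and 1, and Pus10, a pseudouridine synthase, 29 and 1. Their peaks had median widths of 323 to 508 bp and median folds of 4.70 to 5.40. All 5 had more or nearly as many cKO peaks as Pot1a, so a single WT peak separates them from the members.

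The lists of gene functions held between 0 and 5 such genes each. The shares to set these counts beside are 3.43% of all coding bodies with at least 5 cKO and 0 WT peaks, or 13.2% of those with at least 5 cKO peaks. Of 28 DNA repair genes, 26 had at least 5 cKO peaks, but 24 of the 28 held a WT peak, and 3 met the rule of at least 5 cKO and 0 WT peaks in the body. Among them Fancd2 and Fanci, the partners that are ubiquitinated at crosslinks, had 17 and 14 cKO peaks and 0 WT peaks. Fanci leads no member name. Of 28 genes of cilia and intraflagellar transport, 17 had at least 5 cKO peaks and 5 of them 0 WT peaks. Among these were Wdr19 (9 peaks), Bbs1 and Bbs2 (7 each), and Rpgrip1l (5). Of 24 extracellular matrix genes, 10 and 4 met these counts. Besides Fbn1 and Hspg2 they were Col18a1, a basement membrane collagen, with 19 peaks over 7.04% of the body, and the fibrillar collagen Col5a1 with 5 over 1.05%.

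The lists of neural, muscle, stress, immune and lipid function held 0 or 1 such gene each, too few to set apart from those shares. Of 34 genes of synapses and neuronal adhesion, 4 had at least 5 cKO peaks and 0 of them lacked WT peaks. Among 40 channels and transmitter receptors it was 4 and 1, the calcium channel gene Cacna1g with 10 peaks over 3.99% of its body. Among 29 axon guidance genes it was 6 and 1, the receptor gene Nrp2 with 5 peaks over 1.01%. Of 12 radial glia genes 4 had at least 5 cKO peaks, and Slc1a3, the glial glutamate transporter, had 5 over 1.90% and 0 WT peaks. Of 16 p53 pathway genes it was 4 and 1, with 9 peaks in the stress sensor gene Sesn1. Of 24 genes of lipid and xenobiotic metabolism it was 5 and 1, Abcc1. None was found among 10 neuronal, 16 muscle sarcomere and 25 matched immune genes, of which 2, 0 and 1 had at least 5 cKO peaks.

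A further 4 lists were put together after their members had been seen among the names, so their counts are descriptions only. Of 15 genes of the Fanconi anaemia pathway, 5 met the body rule, adding Fancc (8 peaks), Ube2t (7) and Fance (5) to Fancd2 and Fanci. Of 17 genes of the ciliary transition zone, 4 met it, with 22 peaks in Cc2d2a, 8 in Tctn3, 7 in Tctn2 and 5 in Rpgrip1l. Of 17 mitochondrial aminoacyl-tRNA synthetases, 5 met it, with 20 peaks in Rars2, 15 in Ears2, 11 in Lars2, 8 in Aars2 and 5 in Sars2. Of 13 centrosome genes of primary microcephaly, all 13 had at least 5 cKO peaks, and Wdr62 (21), Mcph1 (16) and Cep63 (15) had 0 WT peaks. Counted only over genes with at least 5 cKO peaks, these were 5 of 10, 4 of 11, 5 of 11 and 3 of 13 genes.

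By symbol, 170 of the 855 names were predicted Gm or Rik genes, which is 6.00% of the 2831 such names with a peak. Of 157 solute carrier names 14 were members (8.92%). Of 65 coiled-coil (Ccdc) names 8 were members, led by Ccdc57 (19 peaks). Zinc finger (Zfp) names were members in 11 of 285 cases (3.86%), led by Zfp346 (16 peaks). Of the Gm or Rik, solute carrier, Ccdc and Zfp members, 7, 10, 7 and 8 were whole genes. Among the smaller families, cytochrome P450 (Cyp) names were members in 3 of 10 cases, ADAM protease names in 3 of 17 and myosin names in 3 of 18. Whole genes numbered 0 among the Cyp members, 2 among the ADAM members and 2 among the myosin members. Semaphorin and plexin names (0 of 16), ankyrin repeat names (0 of 26) and cadherin names (0 of 9) held none. The share over all names was 6.97%, and the smaller families rest on few names. By chromosome, members made up 5.16% (chromosome 5) to 9.19% (chromosome 14) of the names with a peak.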

How the data were processed

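Peak lists and annotations of 1 H3K36me3 ChIP library per genotype, each with its input, were used. Per the submitters' processing notes, reads were aligned with Bowtie2 2.2.9 and peaks called with MACS2 2.1.0, while the file headers give version 2.1.1.20160309, narrow calling and a p cutoff of 1.00e-05. Per the file headers, MACS modelled fragments of 152 bp (WT) and 185 bp (cKO), and the inputs held 38500353 and 35026817 tags. The authors deposited for each peak its position in mm10, pileup signal, fold enrichment over local background, and -log10 p-value and q-value. The headers state that q would not be calculated, so how the deposited q column was made is unclear, and it serves here to describe, rank and filter peaks within a list. The pileup and fold depend on the library, so neither was compared between the WT and cKO lists. Peak counts and coverage were compared between the lists, and the alternatives with a q or fold limit applied it to both. The authors' annotation gave each peak a class and a Primary Name, made with a tool that the labels do not name.

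Names were counted with Python 3.11.15, pandas 2.3.3, numpy 2.4.6 and scipy 1.17.1, and the counting was checked on simulated lists. Peaks were placed in bodies of RefSeq protein-coding genes (GRCm38.p6) with at least 1 bp of overlap. Of the 855 names, 667 matched such a gene, 50 of them by a synonym. Coverage is the share of the body inside peaks. Strands and promoter windows came from the RefSeq promoter table, which was matched for 327 of 390 genes. The members, gene lists and rules were chosen with earlier results of these data known. The genes named were those with the most peaks (10) and the highest coverage of bodies of at least 5 kb (10), the strongest and widest peaks (5 each), up to 4 per list except where a list of 5 is given in full, the 5 names with 1 WT peak and most cKO peaks, and examples per family. Some named genes are not reported here. Names shown for being borrowed, Prom1, Gdpd3, the miRNAs and Spaca6 were picked with their values in view. The alternatives used other minimum counts, stricter q (-log10 of 5) or fold (4) limits, a cKO list of the WT length, joining peaks within 3 kb, RefSeq bodies in place of names, and wider spans.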

Additional observations from a re-analysis of the deposited data

Results flagged for a closer look

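The X chromosome lies outside the rule and showed the same pattern more often. There 38 of 64 names with at least 5 cKO peaks had 0 WT peaks (59.4%), against 14.3% of the 5995 such names on chromosomes 1 to 19. The 38 names held 370 cKO peaks. Taf1, a subunit of the general transcription factor TFIID, led with 30, followed by 6720401G13Rik with 25, the corepressor gene Bcorl1 with 21 and the mitotic kinesin gene Kif4 with 18. The labels do not give the sex of the embryos, and its part in this share was not tested.

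The rule also leaves out intergenic peaks. A member name stood on 90 cKO peaks of the intergenic class, spread over 62 names, such as 4 peaks at Actr2 and 3 at Nup35.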

How the results depend on the processing

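The number of names fell furthest when the cKO list alone was shortened, which also raised its lowest -log10 q to 12.3. With only its strongest peaks, as many as the WT list holds, 42 names, 256 peaks and 20 of the 390 whole genes remained, with 63.7% of peaks intronic, a median width of 559 bp and a median fold of 6.58. With at least 3 cKO peaks per name there were 1677 names, 61.6% intronic peaks and 736 whole genes, and with at least 8 there were 359 names, 4021 peaks, 68.9% intronic peaks and 167 whole genes. A -log10 q of at least 5 in both lists, which also removes WT peaks, gave more names (1072, with 9101 peaks and 526 whole genes), a width of 359 bp and a fold of 4.93, and a fold of at least 4 gave 659 names, 4987 peaks, 297 whole genes, 66.4% intronic peaks, 356 bp and 5.17. With peaks of 1 name within 3 kb joined, 100 names held 585 joined peaks, 70.9% of them intronic, with a median width of 490 bp and a median fold of 4.83. RefSeq bodies in place of names, counted with genic peaks alone, gave 704 genes and 60.8% intronic peaks. The share of names with a WT peak of another name in the span was 1.05% when the WT peak had to overlap a member peak and 29.7% with the span widened by 10 kb. The cause of these shifts was not tested. Counting WT intergenic peaks, an alternative added after seeing the data, left 840 names, and the whole-gene counts were added likewise. No paired analysis was possible because each genotype had 1 ChIP library. Without replicates or signal below the calling threshold, a name with 0 WT peaks cannot be told apart from one with WT signal just under it.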

Other observations

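Axl and Tyro3, receptor tyrosine kinases of the TAM family that bind Gas6, were among the 390 genes. Axl had 14 cKO peaks under its name and 15 in its body, which covered 20.5% of it, and Tyro3 had 13 over 29.2%. The WT list had 0 peaks in either body. Sparc, which encodes a secreted matrix-binding protein, had 11 cKO peaks over 30.7% of its body, with a median width of 684 bp. The tumour suppressor Nf2 had 16 peaks over 8.04% and the arginine methyltransferase gene Prmt3 16 over 7.52%. These 5 genes were picked with their values in view.

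In the cKO list reduced to its 36820 strongest peaks, Capn2 kept 12 peaks, Gm26789 (in Herc4) and the nucleoporin gene Nup35 9 each, and Pcgf6 and Xpnpep1 8 each. Sparc, Pot1a, Cep164 and Zfp346 kept 7 each. Neurog2 also kept 7, all of which lie in another gene. Other names with high counts no longer met the rule in this list, among them Hells, Prex1, Mccc1, Abcc1 and Kif18a. The same held for Gm14003 (in Fbn1) and mmu-mir-7018 (in Hspg2). The transcription factor gene Yy1 kept 6 of its 8 member peaks, although its body held 1 WT peak, of the intergenic class.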
